A study of Rattus norvegicus with 4 samples.

Results

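Glycolysis splits glucose to pyruvate in the cytosol, the pyruvate dehydrogenase complex turns pyruvate into acetyl-CoA, and the tricarboxylic acid (TCA) cycle oxidizes acetyl-CoA in the mitochondria. Neurons draw most of their ATP from this route, while in the brain glycogen is held mainly by astrocytes, which can also pass lactate to neurons. Side branches feed it or carry its reducing equivalents: pyruvate carboxylase refills the cycle, the transaminases and malate dehydrogenases form the malate-aspartate shuttle, the glycerol-3-phosphate dehydrogenases form the glycerol phosphate shuttle, the pentose phosphate pathway yields NADPH, and creatine kinase buffers ATP.

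The gene group comprised 44 enzymes of these pathways, taken by name and by pathway step. A probe was matched through its accession for 39 of the 44, out of 8899 genes named in this way. No match was made for Pfkp (platelet phosphofructokinase), Pygb and Pygm (the brain and muscle glycogen phosphorylases), Gys1 (glycogen synthase) or Pgd (6-phosphogluconate dehydrogenase), which were not analysed here, so no glycogen enzyme of the group is described. On all 4 chips 38 of the 39 measured genes gave a signal that the scanner software marked as well above background, in Cy3 and in Cy5. The exception was Hk2.

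Male Wistar rats, 10 weeks old at the start, were kept for 4 weeks sedentary in standard cages (10 rats), with a free wheel (WR, 8 rats) or with a wheel whose resistance was raised up to 30% of body weight (RWR, 8 rats). Hippocampal RNA was pooled within each group, and the methods do not state whether 1 sedentary pool served all 4 chips. The WR pool was hybridized with the sedentary pool (Sed × WR) on 2 chips and the RWR pool with the sedentary pool (Sed × RWR) on another 2. On chip 1 of each pair the running pool carried Cy5 and on chip 2 it carried Cy3. Each comparison therefore rested on 1 pool against 1 pool, the RNA amounts in the methods correspond to 3 replicates in a pool without naming them as single rats, and no test between the conditions could be made. Values below are log2 ratios of running over sedentary, given for chip 1 and chip 2 and as their mean ± the distance of either chip from it (n = 2 chips of the same pools). "Higher" or "lower on both chips" means only that the sign was the same on both chips. The array measures bulk RNA, in which fewer cells of a type and less RNA per cell cannot be told apart.

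The dye moved these genes, like the array at large, more than either form of running. Over the 41003 probes with a value on every chip, the turned ratios of the chips of a pair correlated at r = -0.761 in Sed × WR and at r = -0.686 in Sed × RWR, while chips of the same dye layout correlated at 0.712 and 0.700. This is a description across probes of chips that share a slide and, if it was the same RNA throughout, the sedentary pool. The direction of every ratio rests on the dye labels. A gene with a large difference, the chemokine gene Cxcl10, did reverse with the dyes: turned to running over sedentary, it was lower on all 4 chips, with log2 ratios of -1.28, -1.76, -1.03 and -1.84. Among the 38 enzymes well above background, the median size of the dye term was 0.077 in Sed × WR and 0.082 in Sed × RWR, against a median size of the pair mean of 0.021 and 0.030. The dye term was larger than the pair mean in 27 of 38 enzymes in Sed × WR and in 31 of 38 in Sed × RWR. Among all named genes well above background it was larger in 4149 and 3980 of 5928. The median size of their dye term was 0.088 and 0.085, so a dye term above the pair mean was a trait of the array and not of the enzymes. Cy5 was the brighter dye on all 4 chips for 11 enzymes and Cy3 for 12, which is 60.5% of the enzymes and compares with 50.7% of all 5928 named genes well above background.

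**Figure D1:**
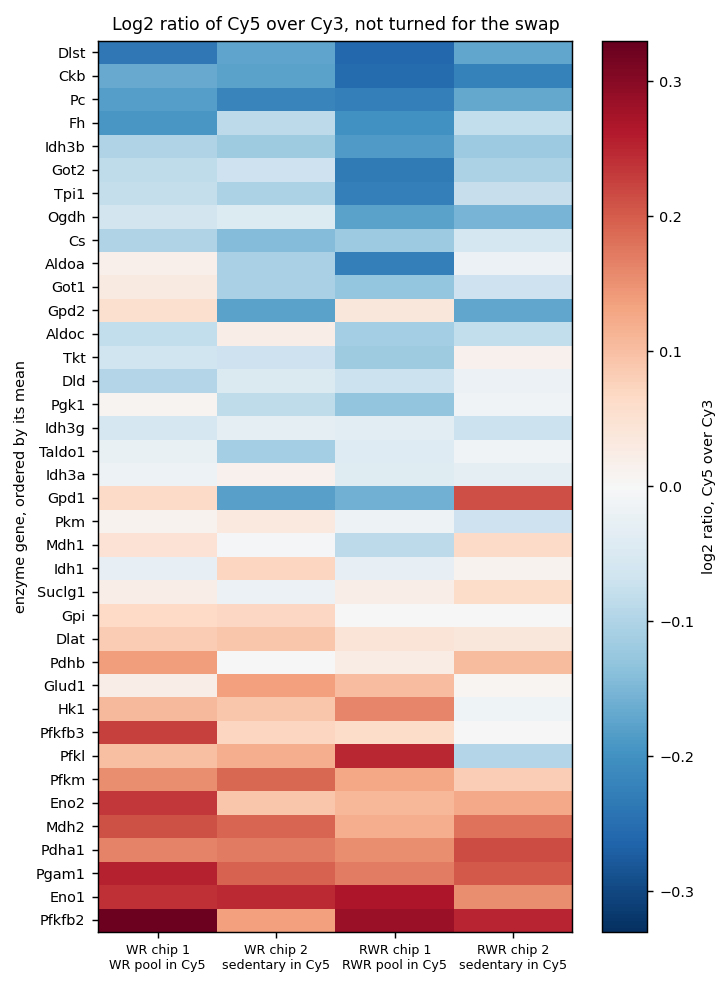
Log2 ratio of Cy5 over Cy3, before turning for the dye swap, of the 38 enzymes well above background (rows) on each of the 4 chips (columns); red marks a brighter Cy5 and blue a brighter Cy3. A row that responded to running alone would change colour between chip 1 and chip 2; 11 rows stayed red and 12 stayed blue on all 4 chips.

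In Sed × WR the 38 enzymes lay close to equality, with pair means from -0.056 (Glud1) to 0.121 (Gpd1), a median of 0.0067, and 36 of 38 within 0.1 of zero. In Sed × RWR the pair means ran from -0.185 (Gpd1) to 0.173 (Pfkl), with a median of -0.018 and 34 of 38 within 0.1. The medians of the 5928 genes well above background were 0.00020 and -0.0014. Of those genes 81.8% and 78.6% had a pair mean within 0.1, compared with 94.7% and 89.5% of the enzymes. The 5928 genes were not matched to the enzymes for signal, so this difference is not read as a trait of the enzymes. No enzyme passed 1.5-fold upwards or 0.75-fold downwards on both chips of either pair, cutoffs that 0.494% of all named genes passed in Sed × WR and 1.57% in Sed × RWR. None passed 1.2-fold on both chips either, where the shares of all named genes were 1.58% and 2.76%. The deposited p-value, which describes 1 chip and not the rats, was never under 0.01 for an enzyme, and its lowest value among the 38 was 0.126.

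**Figure D2:**
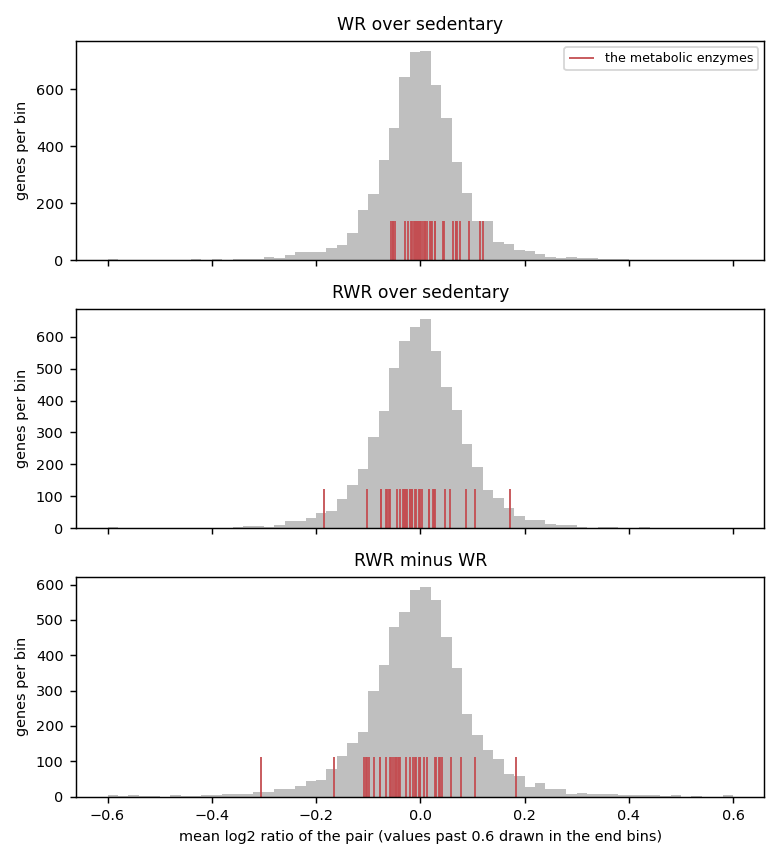
Numbers of named genes well above background (grey bars, 5928 genes) by the mean log2 ratio of a pair, for Sed × WR, Sed × RWR and the difference RWR minus WR, with the 38 enzymes as red ticks. Most ticks sit inside the bulk of the genes in each panel, and Gpd1 at -0.306 is the tick farthest to the left in the lowest panel.

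Signs that held on both chips were few. In Sed × WR, 8 of the 39 measured enzymes were higher on both chips (Aldoa, Pgk1, Pdhb, Suclg1, Mdh1, Got1, Gpd1 and Gpd2), against 12.2% of all named genes and 14.7% of those well above background. Only 3 were lower on both (Aldoc, Idh1 and Idh3a), against 11.6% and 15.3%. In Sed × RWR, 3 enzymes were higher on both chips (Hk1, Pfkl and Gpd2), with 12.5% of all named genes and 15.8% of those well above background, and 4 were lower on both (Idh1, Mdh1, Gpd1 and Tkt), with 15.7% and 17.0%. The share higher in Sed × WR, 20.5%, stood above the background, and the other shares, from 7.69% to 10.3%, stood below it. With background subtraction done another way (normexp) or left out, 4 of the 11 signs in Sed × WR and 4 of the 7 in Sed × RWR remained among the enzymes well above background. Under either setting only 4 enzymes were higher on both chips in Sed × WR. The 20.5% thus depended on the background setting and is not read as a trait of the enzymes.

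**Figure D3:**
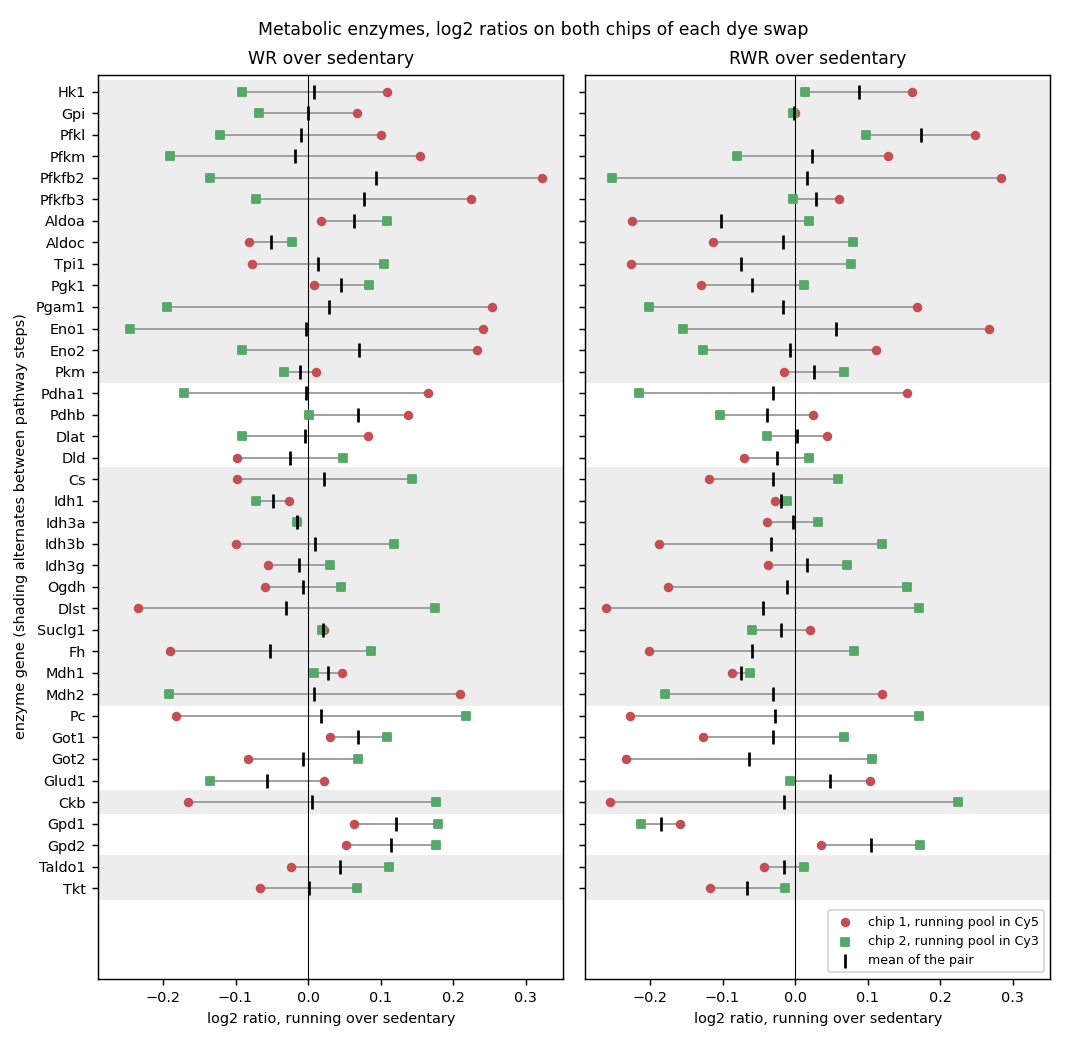
Log2 ratios of running over sedentary for the 38 enzymes well above background, in order of pathway step, with chip 1 (circles), chip 2 (squares) and their mean (bars) for Sed × WR on the left and Sed × RWR on the right. Most lines cross zero; Gpd2 lies to the right of zero and Idh1 to the left of it in both panels.

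Gpd2, the mitochondrial glycerol-3-phosphate dehydrogenase, passes electrons from cytosolic glycerol 3-phosphate to the respiratory chain. In Sed × WR its processed signal was 1077 in the WR pool and 1039 in the sedentary pool on chip 1, and 1065 and 942 on chip 2. In Sed × RWR the signals were 1164 and 1135 on chip 1, and 1049 and 931 on chip 2. The running pool was the brighter on all 4 chips, by log2 ratios of 0.053, 0.176, 0.036 and 0.172, and Gpd2 was the only enzyme of the group with 4 positive ratios. The share of all named genes with 1 sign on all 4 chips is not given, so such signs are not read as a trait of the group. The mean of Gpd2 was 0.114 ± 0.062 in Sed × WR (1.08-fold) and 0.104 ± 0.068 in Sed × RWR (1.07-fold), and RWR minus WR was -0.010. The signs held in both pairs under all 7 alternative settings. Of these, only the 2 background settings and, in Sed × RWR, median centring could change a gene with a single probe. The median ratio of both WR chips was already 0, so centring left Sed × WR as it was. A sign is said to hold where both chips kept it. On both pairs the ratio was larger on chip 2, where the sedentary pool carried Cy5.

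Gpd1, the cytosolic glycerol-3-phosphate dehydrogenase that is the partner of Gpd2 in the shuttle and is rich in oligodendrocytes, gave the largest differences and the least certain ones. Its signals in the running and sedentary pools were 64.6 and 61.9 on WR chip 1, 59.8 and 52.9 on WR chip 2, 56.2 and 62.7 on RWR chip 1, and 45.8 and 53.0 on RWR chip 2. The ratios were 0.063 and 0.179 in Sed × WR against -0.158 and -0.212 in Sed × RWR, so WR lay above and RWR below the sedentary pool on both chips. The means were 0.121 ± 0.058 and -0.185 ± 0.027. With normexp correction the RWR mean turned to 0.047, and without background correction it was 0.020, with the chips of opposite sign in both cases. The WR mean kept its sign, at 0.048 and 0.040.

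Idh1, the cytosolic NADP-dependent isocitrate dehydrogenase, was lower in the running pool on all 4 chips, by small amounts. The ratios were -0.026 and -0.071 in Sed × WR against -0.028 and -0.012 in Sed × RWR, with means of -0.049 ± 0.023 and -0.020 ± 0.0080. With normexp correction and with no correction the chips of each pair no longer shared a sign, and the RWR mean was as high as 0.0057. Mdh1, the cytosolic malate dehydrogenase of the malate-aspartate shuttle, lay above the sedentary pool in Sed × WR (0.047 and 0.0077) and below it in Sed × RWR (-0.087 and -0.062). Its RWR mean of -0.075 ± 0.012 held its sign under all 7 settings, and its WR mean of 0.027 ± 0.020 under 5.

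The glycolytic enzymes had a median of 0.011 in Sed × WR and 0.0075 in Sed × RWR over the 14 genes well above background. Hexokinase 1 (Hk1), which phosphorylates glucose on entry in brain, gave 0.108 and -0.091 in Sed × WR, where the sign followed the dye, and 0.161 and 0.014 in Sed × RWR. The second Hk1 probe gave 0.015 and -0.027 in Sed × RWR, so the higher value in RWR was not shared by both probes, and with normexp correction it was not shared by both chips. Hexokinase 2 (Hk2), the form of muscle and growing cells, was too dim to compare. It was not well above background in any pool, other than the sedentary pool on RWR chip 2, and its processed signal lay between 9.67 and 14.9 in Cy5 and between 2.54 and 4.09 in Cy3 whichever pool carried the dye.

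Among the phosphofructokinases, which catalyse the committed step of glycolysis, Pfkl (liver type) stood out in RWR. The signals in the RWR and sedentary pools were 600 and 505 on chip 1, and 510 and 477 on chip 2. The ratios were 0.248 and 0.097, a mean of 0.173 ± 0.075 (1.13-fold), whereas in Sed × WR they were 0.10 and -0.121. The RWR sign held under all 7 settings, with means from 0.137 to 0.176. Pfkm (muscle type) followed the dye, with 0.155 and -0.191 in Sed × WR against 0.128 and -0.081 in Sed × RWR. Pfkfb2 and Pfkfb3, which set the level of the activator fructose 2,6-bisphosphate, did likewise. The ratios of Pfkfb2 were 0.322 and -0.135 in Sed × WR, against 0.284 and -0.252 in Sed × RWR. Those of Pfkfb3 were 0.225 and -0.071, and 0.060 and -0.0023.

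The aldolases cleave fructose 1,6-bisphosphate, Aldoa widely and Aldoc in brain, where it marks astrocytes. Aldoa gave 0.018 and 0.108 in Sed × WR, against -0.225 and 0.019 in Sed × RWR. Aldoc gave -0.081 and -0.023 in Sed × WR, against -0.113 and 0.080 in Sed × RWR. The WR values thus pointed up for Aldoa (0.063 ± 0.045) and down for Aldoc (-0.052 ± 0.029), signs that held under all 7 settings, and neither gene kept a sign in RWR. The triose phosphate isomerase gene Tpi1 crossed zero in both pairs, with means of 0.014 and -0.075. Gpi, the next enzyme after hexokinase, had means of -0.00040 and -0.00094.

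Pgk1, phosphoglycerate kinase 1, which makes the first ATP of glycolysis, was the enzyme for which the precision within a chip could be seen, since its probe had 10 spots on each chip. The means over the spots were 0.0080 ± 0.016 on WR chip 1, 0.083 ± 0.020 on WR chip 2, -0.130 ± 0.022 on RWR chip 1 and 0.012 ± 0.022 on RWR chip 2 (SD, n = 10 spots). The spots of a chip agreed within about 0.02, and the chips of a pair differed by several times that. On RWR chip 1 all spots lay below zero, from -0.165 to -0.089, and on RWR chip 2 they lay on both sides, from -0.020 to 0.039. Spot noise was thus small beside the difference between the chips of a swap.

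**Figure D4:**
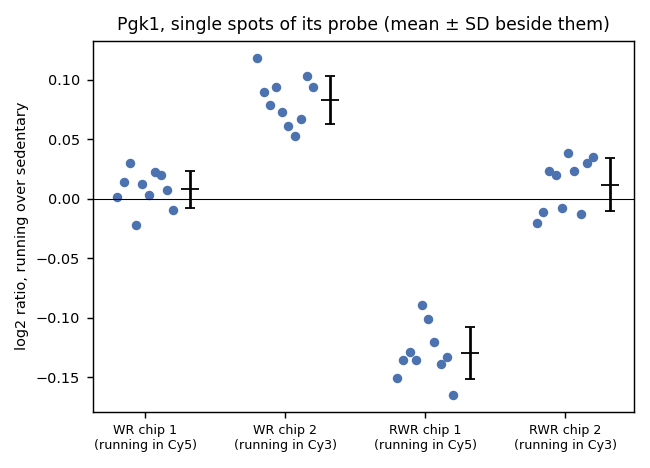
Log2 ratio of running over sedentary at each of the 10 spots of the Pgk1 probe on the 4 chips (points), with the mean and SD of the spots beside them. Spots of a chip lie within an SD of 0.016 to 0.022, and the chips of a pair stand apart.

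Lower in glycolysis the brightest probes followed the dye, while other probes of the same genes did so less. Pgam1, phosphoglycerate mutase, gave 0.253 and -0.195 in Sed × WR at its brightest probe. Its second probe gave 0.037 and 0.090 in Sed × WR against -0.239 and -0.027 in Sed × RWR, with 1 sign in each pair and RWR minus WR at -0.197. Of the enolases, Eno1 (ubiquitous) gave 0.241 and -0.246 in Sed × WR against 0.266 and -0.154 in Sed × RWR. The second Eno1 probe gave 0.157 and -0.032, and -0.0075 and -0.065. The neuronal enolase Eno2 gave 0.233 and -0.092, and 0.111 and -0.126. Pkm, pyruvate kinase, was near zero on every chip, from -0.033 to 0.068.

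In the pyruvate dehydrogenase complex the pair means were small. Pdhb, the beta subunit of its first enzyme, was higher on both WR chips by very little on one of them, at 0.138 and 0.00052, and gave 0.025 and -0.103 in Sed × RWR. Pdha1, Dlat and Dld, the alpha subunit, the acetyltransferase and the shared dehydrogenase, had opposite signs on the chips of both pairs, with means between -0.030 and 0.0026.

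The 11 enzymes grouped under the TCA cycle step include the cytosolic Idh1 and Mdh1, which are not enzymes of the mitochondrial cycle. The 11 had medians of -0.0072 in Sed × WR and -0.030 in Sed × RWR, and all had means within 0.1 in both. Citrate synthase (Cs), often used as a measure of mitochondrial content, gave -0.098 and 0.143 in Sed × WR, against -0.119 and 0.059 in Sed × RWR. Its second, dimmer probe was below zero on every chip, at -0.015, -0.053, -0.149 and -0.116, so the probes of Cs differed in sign in Sed × WR. Of the 3 subunits of the NAD-dependent isocitrate dehydrogenase, Idh3a gave -0.016 and -0.015 in Sed × WR against -0.039 and 0.032 in Sed × RWR. Idh3b gave -0.10 and 0.118, and -0.187 and 0.120. Idh3g gave -0.056 and 0.030, and -0.037 and 0.071. The subunits had means between -0.034 and 0.017 over both comparisons, less than the distance between the chips for each subunit except Idh3a in Sed × WR.

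Fumarase (Fh) had the lowest WR mean of the cycle, -0.052, with -0.191 and 0.086 on the chips, and -0.201 and 0.081 in Sed × RWR. Its other probes, both dimmer, were below zero on all 4 chips. One gave -0.034, -0.0053, -0.018 and -0.058, and the other -0.079, -0.024, -0.120 and -0.163. Dlst and Ogdh, of the 2-oxoglutarate dehydrogenase complex, crossed zero in both pairs. Suclg1, a subunit of succinyl-CoA ligase, gave 0.022 and 0.019 in Sed × WR against 0.021 and -0.060 in Sed × RWR. Mitochondrial malate dehydrogenase, Mdh2, followed the dye, with 0.209 and -0.192 in Sed × WR against 0.119 and -0.179 in Sed × RWR, unlike its cytosolic partner Mdh1. In Sed × WR the small means of Idh3a and Suclg1 turned sign with another background setting, to as much as 0.017 and -0.0089.

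The aspartate aminotransferases complete the malate-aspartate shuttle. The cytosolic Got1 gave 0.031 and 0.108 in Sed × WR against -0.127 and 0.067 in Sed × RWR. Mitochondrial Got2 gave -0.083 and 0.069, and -0.233 and 0.106. Only Got1 in Sed × WR kept its sign (mean 0.069 ± 0.039), and it lost it with normexp correction and without correction. Glutamate dehydrogenase, Glud1, gave 0.023 and -0.135 in Sed × WR against 0.103 and -0.0064 in Sed × RWR. Pyruvate carboxylase (Pc), an astrocyte enzyme, and the brain creatine kinase gene Ckb also followed the dye. Ckb gave -0.166 and 0.176 in Sed × WR against -0.255 and 0.224 in Sed × RWR, so that means of 0.0049 and -0.016 remained.

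In the pentose phosphate pathway, transketolase (Tkt) gave -0.066 and 0.067 in Sed × WR against -0.117 and -0.014 in Sed × RWR. The RWR mean of -0.066 ± 0.052 was on the same side under all 7 settings. Transaldolase (Taldo1) had opposite signs in both pairs, with means of 0.044 and -0.015.

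WR and RWR were not hybridized with each other. Subtracting chips of the same dye layout (RWR chip 1 minus WR chip 1, and chip 2 minus chip 2) removes the part of the dye term that both pairs share and rests on the sedentary pool being the same on all 4 chips. What differed between the layouts stayed in, since the distance of either difference from its mean had a median of 0.039 over the 38 enzymes, beside a median size of the mean of 0.046. The median of the 38 enzymes was -0.033, the range ran from -0.306 (Gpd1) to 0.183 (Pfkl), and 31 of 38 were within 0.1. The median was -0.039 with the running pools in Cy5 but -0.0041 with them in Cy3, so its distance from zero came mainly from the first layout. All genes well above background had medians of -0.015 and 0.010 in these layouts, and the enzyme median was below theirs in both. The median of all genes well above background was -0.0015. On both differences 19 enzymes were lower, where 29.9% of all named genes and 29.7% of those well above background were so. Higher on both were 6 enzymes, or 5 without the dim Hk2, where 23.7% and 28.5% of the genes were so. As shares of the 38, these are 50% lower and 13.2% higher. The imbalance was smaller under other settings. Of the 39 measured enzymes, 13 were lower and 8 higher with normexp correction, and 14 and 7 without correction. With median centring 16 were lower and 6 higher. No enzyme passed 1.5-fold or 0.75-fold on both differences (4.88% of all named genes did), nor 1.2-fold (8.28%).

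**Figure D5:**
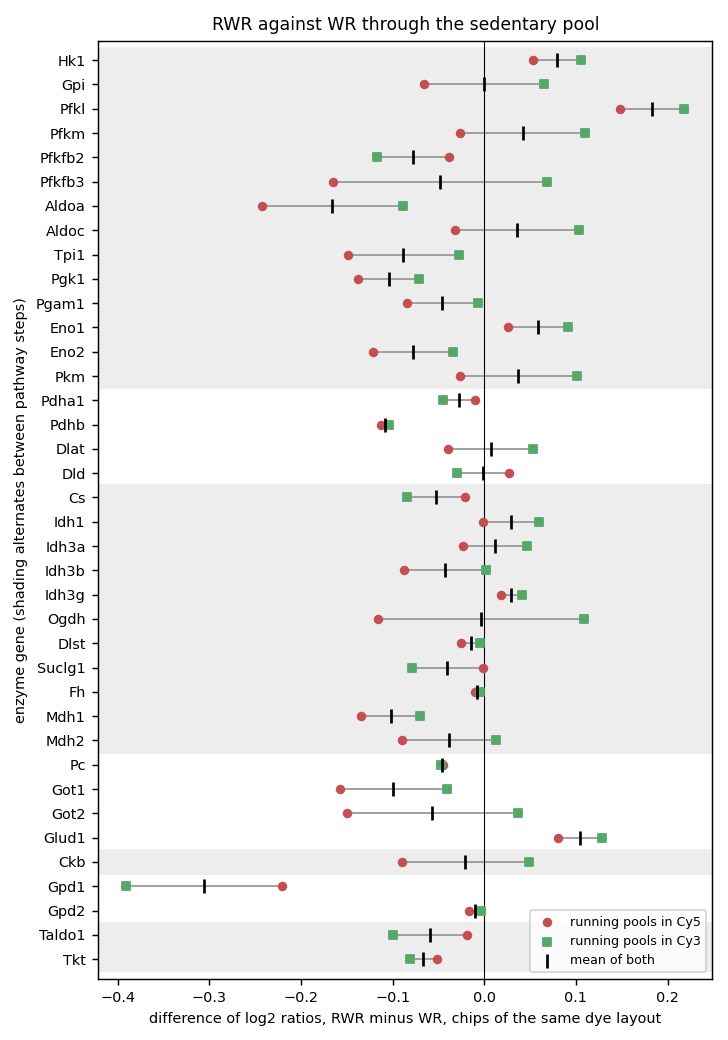
Difference of the log2 ratios, RWR minus WR, between chips with the running pools in Cy5 (circles) and in Cy3 (squares), with the mean (bars), for the 38 enzymes well above background. More enzymes lie wholly to the left of zero (19) than wholly to the right (5).

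The largest differences downwards were Gpd1 (-0.221 and -0.391), Aldoa (-0.243 and -0.089), Pdhb (-0.112 and -0.104), Pgk1 (-0.138 and -0.071) and Mdh1 (-0.134 and -0.070). With normexp correction the Gpd1 difference fell to almost nothing (-0.00099), while Aldoa, Pdhb, Pgk1 and Mdh1 stayed lower on both under all 7 settings, Mdh1 with a mean as small as -0.058. Got1, at -0.099 ± 0.058, did so too. The largest upwards were Pfkl (0.148 and 0.218), Glud1 (0.080 and 0.129), Hk1 (0.053 and 0.105), Eno1 (0.026 and 0.091) and Idh3g (0.018 and 0.041). Of these, only Pfkl kept its sign under every setting, with a mean between 0.103 and 0.186. Pfkl has a single named probe, as do Aldoa, Pdhb, Pgk1, Mdh1 and Got1, so the median over probes could not change them. Their signs are therefore not set against those of genes with several probes. For Glud1, Hk1 and Eno1 the mean turned negative when the median over all probes of the gene was used. The enzymes that lay lower spanned all steps but creatine kinase. They were 6 of 14 in glycolysis, 2 of 4 in the pyruvate dehydrogenase complex and 5 of 11 in the TCA cycle step, the cytosolic Mdh1 among them. In anaplerosis and amino group transfer they were 2 of 4. Both genes of the glycerol phosphate shuttle and of the pentose phosphate pathway lay lower, although for Gpd2 the difference was only -0.010.

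Several probes well above background were available for 8 enzymes. The probes of a gene differed in the sign of the mean for 3 of them in Sed × WR (Cs, Dlat and Eno1), 3 in Sed × RWR (Eno1, Glud1 and Hk1) and 4 in RWR minus WR (Dlat, Eno1, Glud1 and Hk1). The widest range between probes was 0.073 for Hk1 in Sed × WR, 0.116 for Pgam1 in Sed × RWR and 0.166 for Hk1 in RWR minus WR. The median range over the 8 genes, at 0.043, 0.093 and 0.108, was larger than the median size of the mean in the 38 enzymes, which was 0.021, 0.030 and 0.046. The second probe of Pfkfb2 was dim and again followed the dye.

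Of 91 further enzymes of the same pathways, 64 were named on the array and 46 were well above background. In Sed × WR 5 of the 46 were higher and 7 lower on both chips, in Sed × RWR 7 and 9, and in RWR minus WR 14 and 14, so each share was near the background given above. Among these 46, the pair mean of the largest size in both Sed × WR and Sed × RWR was that of Phkg2, a regulator of glycogen breakdown. Of the enzymes left out as dim, Pgk2 (testis phosphoglycerate kinase) had the highest RWR mean and Ckm (muscle creatine kinase) the lowest, and both are named after their values were seen. Pgk2 gave 0.73 and 2.19 in Sed × RWR, with neither pool well above background on either chip. Ckm gave -0.55 and -1.14, with the sedentary pool well above background on 1 chip and the RWR pool on none, so no fold is given for either gene. Phkg2, the liver and testis catalytic subunit of phosphorylase kinase, was lower in the running pool on all 4 chips (-0.438, -0.207, -0.579 and -0.317), with means of -0.323 ± 0.116 in Sed × WR (0.800-fold) and -0.448 ± 0.131 in Sed × RWR (0.733-fold). Phkg1, the muscle catalytic subunit, was higher on all 4 (0.311, 0.137, 0.182 and 0.116). Its Sed × WR mean fell from 0.224 to 0.065 with normexp correction, so its size was not settled, and that of Phkg2 moved to -0.185. The Sed × RWR mean of Phkg2 moved to -0.331 with normexp correction and -0.303 without correction. Its ratio of -0.317 on RWR chip 2 was not past 0.75-fold, so it did not pass that cutoff on both chips. Both genes kept their signs under all 6 settings that could be applied to them. Pygl, the liver glycogen phosphorylase, was 0.125 ± 0.060 in Sed × WR, a sign not shared by both chips with normexp correction, with -0.0044 and -0.113 in Sed × RWR.

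Pdk1 and Pdk2, kinases that switch off pyruvate dehydrogenase, lay on opposite sides of zero in each comparison. Pdk1 gave 0.117 and 0.023 in Sed × WR but -0.302 and -0.159 in Sed × RWR. Pdk2 gave -0.035 and -0.151 in Sed × WR against 0.104 and 0.040 in Sed × RWR. The Pdk2 signs held under all 6 settings, and those of Pdk1 were lost with normexp correction and without correction. Ckmt1, the mitochondrial creatine kinase, was -0.026 and -0.150 in Sed × WR. Bpgm, which makes 2,3-bisphosphoglycerate, was lower on all 4 chips, with an RWR mean of -0.115 ± 0.054 that moved to -0.069 with normexp correction. In RWR minus WR the largest values upwards were those of Phka1 (0.264 ± 0.142), Fbp2 (0.234 ± 0.150) and Stbd1 (0.211 ± 0.0042), and those downwards Pdk1 (-0.301 ± 0.119), Pygl (-0.184 ± 0.115) and Pgm1 (-0.148 ± 0.039). Their mean signals were low, at 31 for Phka1, 87 for Fbp2, 81 for Stbd1, 223 for Pdk1, 71 for Pygl and 138 for Pgm1. Across the background settings these differences shrank to as little as 0.081 for Phka1, -0.104 for Pdk1 and -0.057 for Pygl, with no change of sign, and the shared sign of Stbd1 was lost with the median over its probes.

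Of 15 hippocampal and forebrain neuron markers 10 were named, and all 10 were well above background. Their median was 0.042 in both pairs, with 4 higher and 0 lower on both chips in Sed × WR against 3 and 0 in Sed × RWR. All 8 astrocyte, 6 oligodendrocyte and 5 microglia markers were also well above background. Their medians were 0.0074, -0.070 and 0.019 in Sed × WR, against 0.010, -0.075 and 0.0040 in Sed × RWR. Of the choroid plexus markers 7 of 8 were named, 2 were well above background on all chips and Kl on none, and their summed signal was 356 to 449 in the WR pool against 651 to 667 in the sedentary pool of the same chips, and 703 to 838 in the RWR pool against 707 to 730. Blood, endothelium, skeletal muscle and pituitary markers (3, 3, 5 and 4 named) had medians of 0.0014, 0.0054, 0.0076 and -0.177 in Sed × WR, against -0.110, -0.166, 0.020 and -0.049 in Sed × RWR. The part of these cell types in the enzyme values was not tested.

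The 250 bases before the transcription start were listed in RefSeq (build GRCr8) for 35 of the 39 measured enzymes, those of Gpd1, Idh3a, Pc and Pgk1 not being listed. They are shown for the enzymes with the same sign on all 4 chips, Gpd2 and Idh1, and for Mdh1, whose sign differed between the pairs. On both strands, 3 motifs were searched, namely the hypoxia response core ACGTG, the GC box GGGCGG and the extended nuclear receptor site TNAAGGTCA, and no match overlapped another in the promoters shown. Capitals mark a GC box on either strand, 2 in Gpd2 and 2 in Idh1, and Mdh1 held none of the 3 motifs.
Gpd2, chr3:62211403-62211652, plus strand: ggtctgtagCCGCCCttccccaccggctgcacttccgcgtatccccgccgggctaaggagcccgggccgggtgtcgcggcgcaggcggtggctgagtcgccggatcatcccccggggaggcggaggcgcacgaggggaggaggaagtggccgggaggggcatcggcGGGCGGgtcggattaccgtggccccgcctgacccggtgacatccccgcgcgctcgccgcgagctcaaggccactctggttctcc
Idh1, chr9:74049475-74049724, minus strand: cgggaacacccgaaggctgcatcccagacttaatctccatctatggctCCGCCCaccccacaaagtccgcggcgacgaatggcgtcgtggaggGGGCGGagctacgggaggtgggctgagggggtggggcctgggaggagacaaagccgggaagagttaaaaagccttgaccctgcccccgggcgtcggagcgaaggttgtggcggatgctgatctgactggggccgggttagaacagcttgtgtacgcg
Mdh1, chr14:99847228-99847477, minus strand: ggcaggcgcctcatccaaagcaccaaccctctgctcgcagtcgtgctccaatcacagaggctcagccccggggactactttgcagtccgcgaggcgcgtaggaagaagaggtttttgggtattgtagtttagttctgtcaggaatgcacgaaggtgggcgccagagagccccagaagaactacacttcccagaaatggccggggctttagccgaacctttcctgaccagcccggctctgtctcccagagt
Over the 35 enzymes a GC box was present in 19 (54.3%), against 32.4% of 27457 promoters of the same length. The hypoxia response core was present in 9 (25.7%), against 16.9%, and the nuclear receptor site in 0, against 1.00%. Such matches describe letters in the window and not bound sites.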

How the data were processed

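RNA pools of rat hippocampus were compared on 4 two-colour Agilent chips of 1 slide. Per the submitters' processing notes and the file headers, the authors used Feature Extraction 11.0.1.1 to subtract a spatially detrended background and to normalize the dyes by LOWESS. They deposited, per spot, the processed signal intensity of each dye, the log10 ratio of Cy5 over Cy3 (set to 0 where not measurable) and a p-value that describes the single chip; the deposited series matrix repeats the log10 ratio.

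From these, ratios were converted to log2 and turned to running over sedentary by the dye labels. Control spots and spots with an outlier flag were left out, and spots of a probe were averaged. Accessions, on an array designed on rn4, were matched without version to RefSeq names (10768 probes, 8899 genes), and the brightest probe stood for a gene. "Well above background" is the scanner's flag, in both dyes on all chips. Each chip held 43379 noncontrol spots, and the number of chips limits the precision. The sign on both chips was counted beside the same count over all named genes; no test between conditions was made, as each comparison has 1 biological replicate.

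The members and lists (44 enzymes, 91 further enzymes, cell type markers) were chosen with earlier results of these data known. Genes named in the text are all members by step, isoenzyme families chip by chip, the 5 members and 3 further enzymes with the largest mean each way among those with the same sign on both chips, and members whose probes differ in sign; 1 further enzyme that this rule names is not reported here. Alternatives were normexp (offset 50) or no background correction of the median signal with loess (limma 3.58.1, R 4.3.3), median centring, a filter on dim probes, the series matrix, the median over probes, flagged spots kept, other cutoffs, the p-value and each chip left out. Calculations used Python 3.11.15 with numpy 2.4.6 and pandas 2.3.3 and were tested on simulated data.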

Additional observations from a re-analysis of the deposited data

Results flagged for a closer look

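For 6 enzymes the WR pool lay on one side of the sedentary pool on both chips and the RWR pool on the other side on both chips. No test of this contrast between the running groups was made. The share of all named genes that did so is not given, so the count is not read as a trait of these enzymes. RWR minus WR was -0.31 on the log2 scale for Gpd1, -0.10 for Mdh1, -0.30 for Pdk1, -0.18 for Pygl, 0.16 for Pdk2 and 0.12 for Ckmt1. Gpd1 and Mdh1 belong to the 38 enzymes of the group well above background, and the others to the 46 further enzymes. For Pygl the RWR ratio on chip 1 was -0.0044, and for Mdh1 the WR ratio on chip 2 was 0.0077, so that the sign there rested on very little. With normexp background correction and with no correction the chips no longer shared a sign for Gpd1 in RWR, for Mdh1 and Pygl in WR and for Pdk1 in both, so that the opposite sides were lost for 4 of the 6 under these settings.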

How the results depend on the processing

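With normexp or with no background correction, 4 enzymes were higher and 1 lower on both chips in Sed × WR, and 2 lower in Sed × RWR. Median centring gave 5 higher in Sed × RWR, and the median over probes 7 lower. Leaving out 1 chip, the median of the measured enzymes lay between 0.0077 and 0.022 in Sed × WR, between -0.037 and 0.012 in Sed × RWR, where its sign turned without chip 1, and between -0.038 and -0.0039 in RWR minus WR, the last value without chip 1 of each pair. On a single chip 1 enzyme, the dim Hk2, passed 1.5-fold or 0.75-fold in Sed × WR (1 to 1) and Sed × RWR (1 to 1), and 0 to 1 in RWR minus WR. The cause was not tested. Of the 24 enzymes well above background with 1 sign in RWR minus WR, 18 kept it with either background setting, 20 with the median over probes and 21 with centring. The counts of 0 past the cutoffs on both chips held under the other settings, and a p-value under 0.01 was found for no enzyme. No paired analysis was possible because the chips of a pair are a dye swap of the same pools and no test was made. The 4 chips and the dye term limit what these ratios resolve. So does the low signal of Gpd1, Pfkfb3 and Ogdh, and of the further enzymes Phkg1, Phka1, Pygl, Fbp2 and Stbd1.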
